A study of Mus musculus with 9 samples.

Results

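The genes of mitochondrial respiratory complex I were taken as all protein-coding genes of the count table whose name begins with Nduf, which gave 48 genes of the 56748 listed. By name they fell into 11 core genes (Ndufs and Ndufv), 29 accessory genes (Ndufa, Ndufb and Ndufc) and 8 assembly factors (Ndufaf). Their RNA was measured by RNA-seq in hematopoietic stem cells (HSCs) sorted from mouse bone marrow, in 3 groups of 3 libraries. Young HSCs (yHSCs) came from mice of 6 to 10 weeks. Pre-aged HSCs (paHSCs) came from mice of 14 to 16 months and were split by the surface level of P-selectin, encoded by Selp, into Selp_low and Selp_high fractions. All mice were female C57BL/6 animals and untreated, and no transgene or deletion was involved. All cells were gated as lineage-negative, Sca1-positive, c-Kit-positive, CD48-negative and CD150-positive. The sources used here do not say whether animals were pooled for a library, so the spread between libraries may be partly technical.

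Complex I is the entry point of the respiratory chain in the inner mitochondrial membrane. It takes electrons from NADH, passes them through a flavin and a row of iron-sulfur clusters to ubiquinone, and pumps protons. A conserved core does the catalysis, and its membrane part is encoded by mitochondrial DNA. Accessory subunits surround the core and stabilise it, and assembly factors build the enzyme without staying in it. Quiescent HSCs are known for leaning on glycolysis and for keeping respiration low. The name-based classes are not exact: of the 11 Ndufs and Ndufv genes, 7 encode structural core subunits, whereas Ndufs4, Ndufs5, Ndufs6 and Ndufv3 encode accessory subunits. Ndufa4, named with the accessory genes, is now placed in complex IV.

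Libraries held 24866975 to 35375310 counts. The sorted fractions matched their label for the gene they were split by: Selp had 20.5 to 30.02 CPM (counts relative to the library total, here on totals scaled by the trimmed mean of M-values, TMM) in yHSCs, 29.3 to 109 in Selp_low and 264 to 652 in Selp_high libraries. The 8 HSC marker genes were detected in every library, but their summed CPM was 790 to 1479 in Selp_low, 1012 to 2269 in yHSC and 2111 to 3047 in Selp_high libraries. Genes of other blood cells stood out in single Selp_low libraries. The 8 B and plasma cell markers summed to 5476, 105728 and 77.9 CPM in Selp_low 1, 2 and 3, against 157 to 266 in yHSC and 370 to 3628 in Selp_high libraries, with 1 marker at 0 in 1 Selp_high library (Pax5 in Selp_high 3). The 8 neutrophil markers summed to 4905, 493 and 203807 CPM in the same 3 libraries, against 12245 to 63225 in yHSC and 1547 to 39744 in Selp_high libraries, with none at 0. The 10 most abundant genes took 44.8% of all counts in Selp_low 2 and 20.9% in Selp_low 3, where the TMM factors were 0.545 and 0.785, and 3.90% to 12.5% elsewhere, where the factors were 1.05 to 1.22. The megakaryocyte markers summed to 121 to 189 CPM in yHSC, 158 to 2106 in Selp_low and 1298 to 7209 in Selp_high libraries, and the T cell markers to 216 and 625 CPM in Selp_low 1 and 2 against 2.82 to 17.7 elsewhere. The 7 red cell markers, like the complex I genes, were higher in every Selp_low than in any Selp_high library and highest in yHSC 1 among the yHSC libraries: they summed to 2599, 550 and 284 CPM in yHSC 1, 2 and 3, to 3218, 1410 and 1431 CPM in Selp_low 1, 2 and 3, and to 892, 802 and 1253 CPM in the Selp_high libraries, with none at 0. Cd48, whose product was gated against, had 174 and 309 CPM in Selp_low 1 and 2 and 11.6 to 38.6 CPM elsewhere. Flt3, also taken as low in HSCs but not part of that gate, was highest in yHSCs. It had 207, 330 and 563 CPM in yHSC 1, 2 and 3, 5.40 to 42.4 CPM in Selp_low and 4.29 to 7.78 CPM in Selp_high libraries. The part of these transcripts in the results below was not tested, and in bulk libraries a change in RNA per cell and a change in cell make-up cannot be told apart.

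Of the 48 genes, 46 passed the filter on low counts in every comparison. Those left out were Ndufb11b, at 0 counts in all 9 libraries, and Ndufa4l2, a paralog of Ndufa4 known as a hypoxia-induced gene, with 4 counts in Selp_low 1, 16 in Selp_low 2 and 0 in the other libraries. At these depths, the limit set by 0 counts in a library was 0.0695 to 0.198 CPM (3 counts), for counting error alone. Per length, the most abundant members over all 9 libraries were Ndufa1 (323 FPKM, the TMM-scaled CPM per kilobase of gene length), Ndufa2 (186 FPKM) and Ndufa8 (150 FPKM). All 3 are small accessory subunits. Among the genes tested, the lowest were Ndufb2 (1.58 FPKM), Ndufaf2 (6.36 FPKM), an assembly factor related to Ndufa12, and Ndufab1 (8.87 FPKM), the mitochondrial acyl carrier protein. No assembly factor ranked above place 30 of 48 by FPKM. On a TPM scale instead, 4 of the 48 genes moved by more than 1 place.

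**Figure D1:**
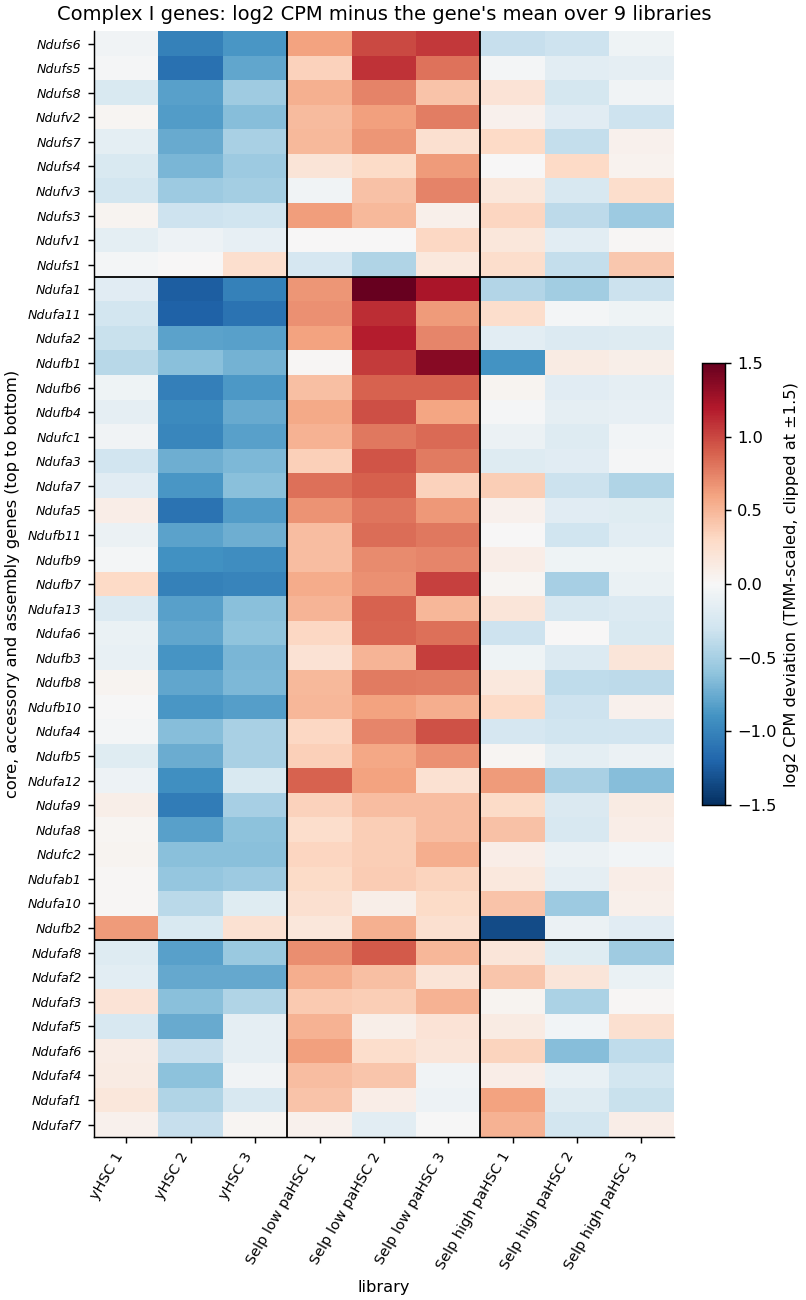
Log2 CPM of tested complex I genes in each of the 9 libraries (columns), as the deviation from each gene's mean over all libraries (colour, clipped at 1.5 either way), with core, accessory and assembly genes from top to bottom and, within a class, the largest Selp_low over yHSC difference first. The Selp_low columns are red for most genes and the columns of yHSC 2 and 3 are blue, while Ndufs1, Ndufv1, Ndufb2 and Ndufaf7 do not follow this order.

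The first comparison asked how Selp_low paHSCs differ from yHSCs. On TMM-scaled counts, complex I genes were higher in Selp_low paHSCs: 45 of 46 had a positive log2 fold change. Their median was 1.08, while the median over all 20437 genes tested was 0.08. The summed level was 3799, 2436 and 2789 CPM in yHSC 1, 2 and 3 and 5251, 6185 and 6022 CPM in Selp_low 1, 2 and 3, so every Selp_low library lay above every yHSC library, and yHSC 1 lay closest to them. Groups did not overlap, with Selp_low higher, for 41 of the 46 genes, against 9.59% of all genes tested. By edgeR's quasi-likelihood test with Benjamini-Hochberg adjustment, 0 of the 46 genes passed an adjusted p of 0.05 and an absolute log2 fold change of 1, as did 0% of all genes, and the adjusted p ran from 0.332 to 0.988. At an unadjusted p under 0.05, 35 of 46 were higher and 0 lower, against 7.11% of all genes that were higher and 4.17% that were lower. DESeq2 on the same genes called 19 of the 46 higher and 0 lower, against 2.79% of all genes called higher and 1.59% called lower.

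That DESeq2 count rested on single libraries. It was 0 without yHSC 2, without yHSC 3 or without Selp_low 2, 14 without Selp_low 3, 19 without Selp_low 1 and 34 without yHSC 1. With no filter on low counts before the fit, DESeq2 called 3 of the members (Ndufa1, Ndufa2 and Ndufa11) against 0.806% of all genes called higher. Voom with quality weights called 28 members, and 431 genes among all genes tested. The number of members higher at an unadjusted p was 25 to 36 when each library was left out. For the fits with a library left out, by either tool, the shares over all genes are not given here. The size of the difference depended less on single libraries: leaving out each of the 6 in turn gave a median log2 fold change of 0.92 to 1.25. It was 1.01 without Selp_low 2, the library rich in plasma cell transcripts, and 1.02 without Selp_low 3, the library rich in neutrophil transcripts. Each of these fits kept the other library, and Selp_low 1 also held B and plasma cell markers (5476 CPM). The part of such transcripts in the difference was therefore not tested.

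The size also depended on how libraries were scaled. On library totals without TMM factors, the summed complex I level was 4513, 2980 and 3012 CPM in the yHSC libraries and 5709, 3369 and 4727 CPM in the Selp_low libraries, so the groups overlapped. There 37 of 46 genes were higher and 9 lower, the median of the log2 fold changes was 0.49, 3 genes were higher at an unadjusted p under 0.05 (35 with TMM factors), and groups did not overlap for 5 higher genes and 1 lower gene (41 and 0 with TMM factors). The shares over all genes on library totals are not given here, so these counts cannot be set against a background. That scaling moved the median of all genes by -0.56. Relative to the median of all genes, the median complex I gene was higher by 1.00 with TMM factors and by 0.97 on library totals, and the other scalings lay between 0.98 and 1.00. A change of scaling moves all genes of a comparison by nearly the same amount. This gap was therefore bound to stay alike, and it is no test of the scaling. When the 36 genes that were among the 10 most abundant of any library were left out of the totals, the summed level was 5417, 3200 and 3253 CPM in yHSCs and 6560, 6618 and 6201 CPM in Selp_low paHSCs. No complex I gene was among those 36.

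**Figure D2:**
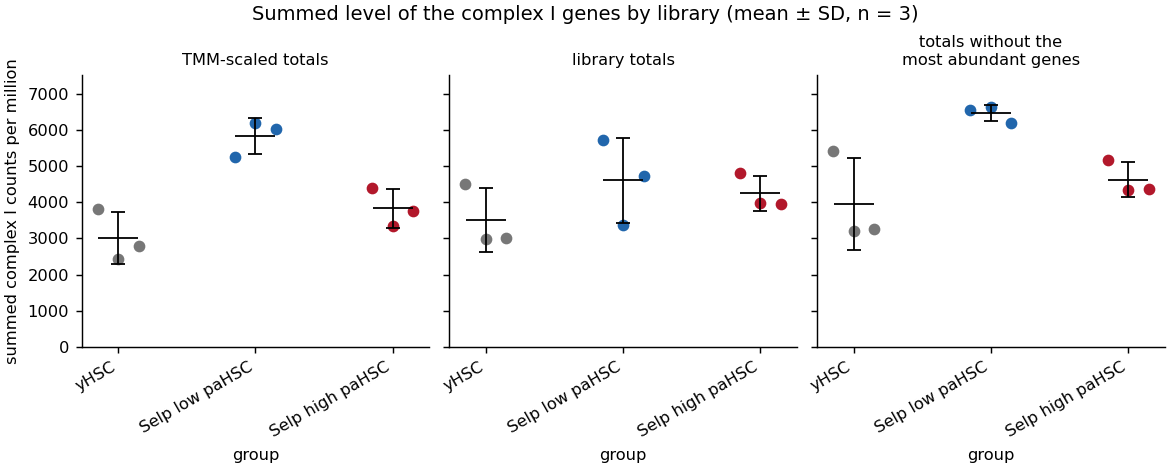
Summed level of the complex I genes per library (points, CPM) in each group, with the group mean and SD (n = 3), on TMM-scaled totals (left), library totals (middle) and totals without the most abundant genes (right). The Selp_low libraries lie above all others on the left (5251 to 6185) and on the right (6201 to 6618), but range from 3369 to 5709 in the middle, where the groups overlap.

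Ndufa1, an X-linked accessory subunit of the membrane arm needed for assembly (gene at chrX:36451241-36454816, minus strand, mm39), showed the largest difference. It had 94.1, 44.8 and 52.5 CPM in yHSC 1, 2 and 3, then 168, 373 and 248 CPM in Selp_low 1, 2 and 3, and 78.2, 74.0 and 85.1 CPM in Selp_high 1, 2 and 3. The Selp_low libraries lay above both other groups, which overlapped each other. The log2 fold change over yHSC was 2.08 (95% interval 1.01 to 3.14), a 4.21-fold higher level, with an adjusted p of 0.332 by edgeR and 0.0029 by DESeq2, and of 0.0029 to 0.981 over all alternatives.

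Ndufa2, an accessory subunit with a thioredoxin-like fold, had 76.2, 55.0 and 54.5 CPM in the yHSC libraries, 145, 217 and 159 CPM in the Selp_low libraries and 85.7, 83.4 and 83.9 CPM in the Selp_high libraries. Ndufa3, a small membrane subunit, had 72.7, 53.7 and 55.6 CPM in yHSC, 114, 171 and 152 CPM in Selp_low and 77.9, 79.4 and 87.7 CPM in Selp_high libraries. Ndufa11, a membrane subunit at the contact with complex III in supercomplexes, had 33.3, 17.4 and 18.8 CPM in yHSC, 64.9, 87.1 and 62.7 CPM in Selp_low and 48.5, 39.6 and 38.7 CPM in Selp_high libraries. In all 3 genes the groups did not overlap in any of the 3 comparisons, with yHSC lowest and Selp_low highest. This held for 4 of the 46 members, against 0.661% of the 18598 genes tested in all comparisons, the fourth being the membrane-arm subunit Ndufb5 (37.3 to 55.4 CPM in yHSC, 80.3 to 100 in Selp_low and 56.5 to 63.9 in Selp_high). Over yHSC, the Selp_low log2 fold changes were 1.53 for Ndufa2 (0.83 to 2.22), 1.30 for Ndufa3 (0.66 to 1.95) and 1.66 for Ndufa11 (0.81 to 2.51).

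The other genes that DESeq2 called higher were Ndufa4, Ndufa6, Ndufa7 and Ndufa13 (log2 fold changes 1.08 to 1.28), Ndufb1, Ndufb4, Ndufb5, Ndufb6, Ndufb9 and Ndufb11 (1.03 to 1.52), Ndufc1 (1.31), Ndufs5, Ndufs6 and Ndufs8 (1.12 to 1.51), and the assembly factor Ndufaf8 (1.26). Ndufs6, a zinc-binding subunit of the NADH-oxidising module, had 51.6, 26.4 and 29.1 CPM in yHSC, 81.2, 106 and 112 CPM in Selp_low and 42.2, 43.2 and 51.0 CPM in Selp_high libraries. Ndufaf8, which works with the arginine hydroxylase Ndufaf5, had 26.5, 17.2 and 20.6 CPM in yHSC and 49.2, 57.3 and 43.1 CPM in Selp_low libraries. Of the 19 genes called, Ndufs8, an iron-sulfur subunit on the path to ubiquinone, was the only structural core subunit. It had 132, 88.2 and 107 CPM in yHSC and 223, 259 and 208 CPM in Selp_low libraries.

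The smallest differences were those of Ndufs1, Ndufaf7, Ndufb2 and Ndufv1. Ndufs1, the largest core subunit and the carrier of several iron-sulfur clusters, had 118, 121 and 144 CPM in yHSC, 102, 88.5 and 135 CPM in Selp_low and 145, 94.0 and 160 CPM in Selp_high libraries, and all groups overlapped. Its log2 fold change for Selp_low over yHSC was -0.20 (-0.74 to 0.35). Ndufv1, which binds NADH and the flavin, had 128, 135 and 131 CPM in yHSC and 143, 142 and 176 CPM in Selp_low libraries, so it was among the 41 members without overlap, but its log2 fold change was 0.27 (-0.21 to 0.75) and -0.31 on library totals. Ndufaf7, a methyltransferase of complex I assembly, had 29.8 to 39.7 CPM in yHSC and 34.0 to 39.7 CPM in Selp_low libraries, with a log2 fold change of 0.09 (-0.47 to 0.64), and Ndufb2 gave 0.11 (-0.74 to 0.95). Ndufaf7 and Ndufb2 changed sign on library totals, to -0.45 and -0.50. These intervals leave room for differences in either direction.

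**Figure D3:**
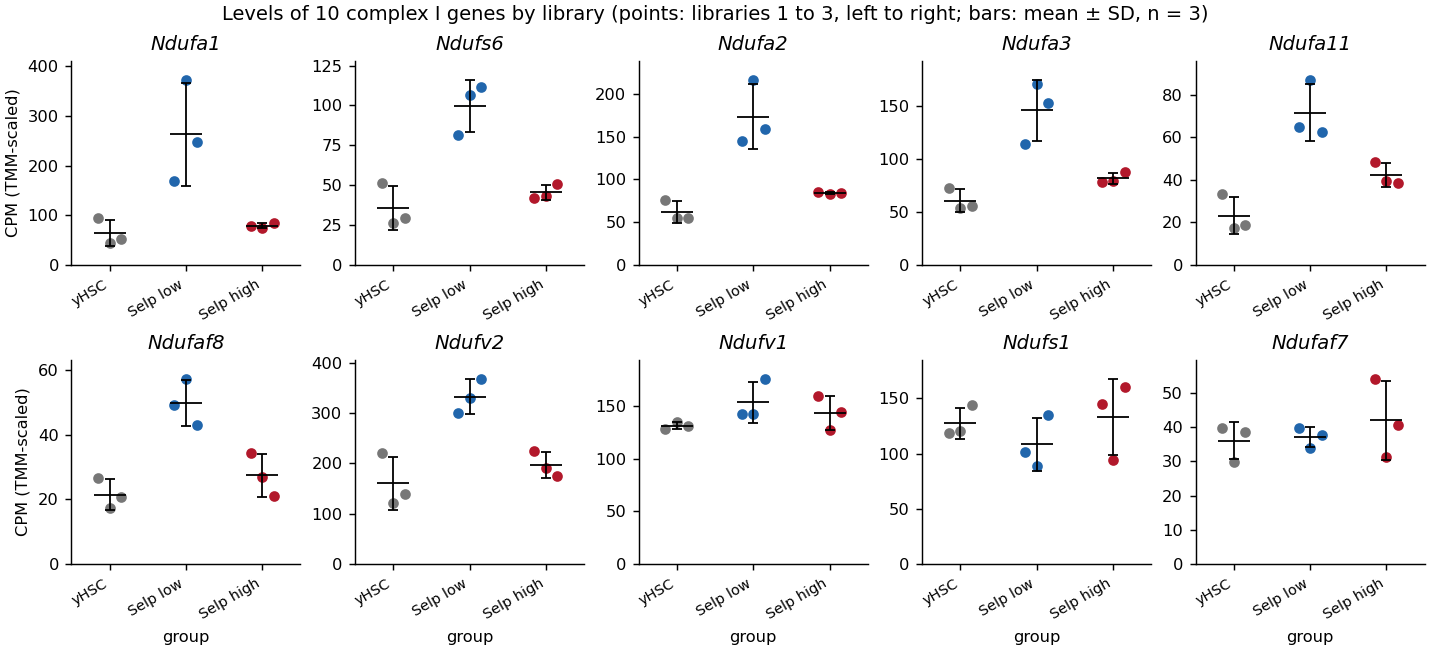
CPM on TMM-scaled totals of 10 complex I genes in the 3 groups (points, libraries 1 to 3 from left to right; bars, mean and SD, n = 3; axes start at 0). Ndufa1, Ndufs6, Ndufa2, Ndufa3, Ndufa11, Ndufaf8 and Ndufv2 are highest in the Selp_low libraries, while the 3 groups overlap for Ndufs1 and Ndufaf7 and lie close together for Ndufv1.

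By class, the median log2 fold change of Selp_low over yHSC was 1.21 for the 27 accessory genes tested, 0.89 for the 11 core genes by name and 0.60 for the 8 assembly factors. All 27 accessory genes, 10 of 11 core genes and 8 of 8 assembly factors were higher. For the 7 structural core subunits the median was 0.64, and for Ndufs4, Ndufs5, Ndufs6 and Ndufv3 it was 1.13. DESeq2 called 15 of the 27 accessory genes, 3 of the 11 core genes and 1 of the 8 assembly factors higher, against 2.79% of all genes, and the total of these counts was 0 without yHSC 2, yHSC 3 or Selp_low 2. The Ndufa and Ndufb genes had medians of 1.20 (n = 14) and 1.21 (n = 11). Within single libraries, the median deviation of the accessory genes minus that of the 7 structural core subunits, on the log2 scale, was 0.01, -0.32 and -0.37 in yHSC 1, 2 and 3, -0.02, 0.30 and 0.37 in Selp_low 1, 2 and 3, and -0.22, 0.16 and -0.12 in Selp_high 1, 2 and 3. The groups therefore overlapped in this measure, because yHSC 1 exceeded Selp_low 1.

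**Figure D4:**
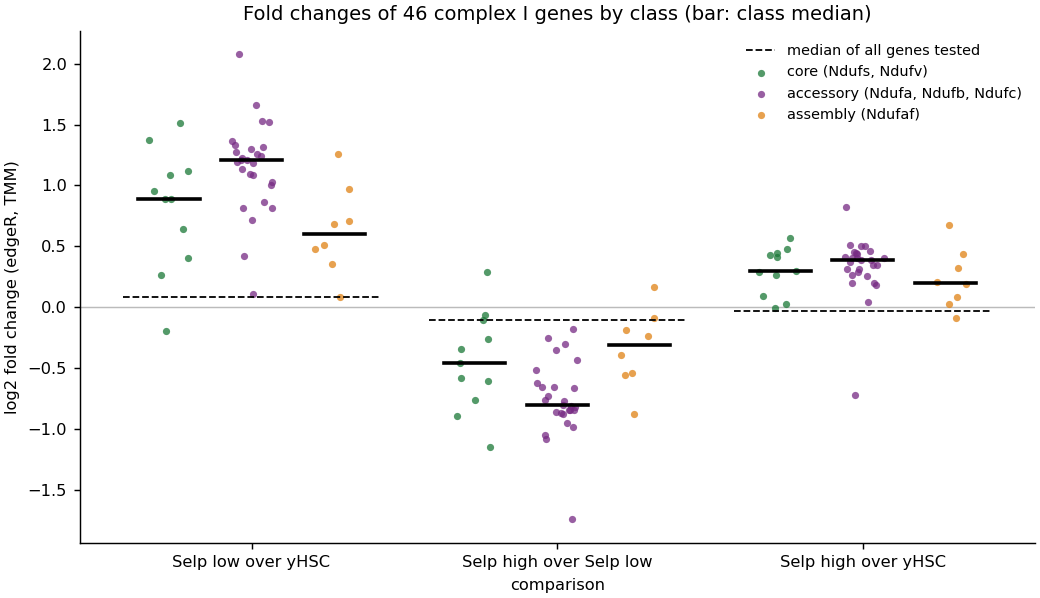
Log2 fold changes (edgeR, TMM) of the 46 tested genes, 1 point each, in the 3 comparisons, coloured by class, with the class median as a bar and the median of all genes tested as a dashed line. Accessory genes have the median farthest from that line in every comparison, at 1.21, -0.81 and 0.38, and assembly factors the nearest.

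The second comparison set Selp_high against Selp_low paHSCs of the same age. On TMM-scaled counts, 44 of 46 members were lower in Selp_high paHSCs. The median of their log2 fold changes was -0.65, against -0.11 over all 20370 genes tested. The summed level was 4397, 3334 and 3751 CPM in Selp_high 1, 2 and 3, below all 3 Selp_low libraries. By edgeR, 0 of the 46 passed the thresholds, as did 0% of all genes, with adjusted p from 0.338 to 0.949. At an unadjusted p under 0.05, 23 were lower and 0 higher, against 5.67% of all genes that were lower and 6.88% that were higher, and groups did not overlap for 28 genes, with Selp_high lower, against 10.6%. DESeq2 called 3 members lower (Ndufa1, Ndufs6 and Ndufa2), and 0 higher, against 1.81% of all genes called lower and 2.15% called higher. That count was 1 to 7 when each library was left out (1 without Selp_low 2, 7 without Selp_low 1, 5 without Selp_high 1, 2 without Selp_high 3) and 1, Ndufa1, with no filter on low counts, against 0.942% of all genes. The count at an unadjusted p was 13 without Selp_low 2 and 13 without Selp_high 3, and 18 to 26 without any other library. For the fits with a library left out, the shares over all genes are not given here. Libraries with the same number of the 2 fractions deviated together, and edgeR with the replicate number as a block also called 0 members and gave adjusted p of 0.0953 or more.

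Again the scaling mattered. On library totals, 30 of 46 members were lower and 16 higher, and their median was -0.16, while the median of all genes moved by 0.48. On that scale 1 member was lower at an unadjusted p under 0.05 (23 with TMM factors), and groups did not overlap for 4 lower members and 1 higher member (28 and 0 with TMM factors). For these counts too, the shares over all genes on library totals are not given. The gap of the median member to the median of all genes was -0.55 with TMM factors and -0.53 on library totals. It was bound to stay alike here too, since a change of scaling moves all genes nearly equally. Without the most abundant genes in the totals, 41 were lower and 5 higher, with a median of -0.52.

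Ndufa1 had the largest difference here too, with a log2 fold change of -1.74 (-2.54 to -0.94) and an edgeR adjusted p of 0.338. Ndufs6 followed with -1.14 (-1.70 to -0.59) and Ndufa2 with -1.05 (-1.64 to -0.47), both at the same adjusted p. Ndufc1, a small membrane-arm subunit, gave -0.85 (-1.35 to -0.34), from 79.3, 95.9 and 100 CPM in Selp_low to 52.0, 48.3 and 53.7 CPM in Selp_high libraries. Ndufa4 had 238, 318 and 370 CPM in Selp_low and 160, 156 and 157 CPM in Selp_high libraries, a log2 fold change of -0.98 (-1.59 to -0.37). The 2 members that were not lower were Ndufs1, at 0.29 (-0.41 to 0.99), and Ndufaf7, at 0.17 (-0.49 to 0.82), which was -0.06 without Selp_high 1.

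The class medians were -0.81 for the accessory, -0.45 for the core by name and -0.31 for the assembly genes. All 27 accessory genes were lower, and 22 of them did not overlap between the fractions. This was the case for 4 of the 11 core genes and 2 of the 8 assembly factors, and for 10.6% of all genes tested. Differences between the classes were not tested, and on library totals 4 members of all classes together were lower without overlap. The 7 structural core subunits had a median of -0.45, with 6 lower.

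The third comparison, Selp_high paHSCs against yHSCs, gave small differences. The median log2 fold change was 0.35 over the 46 members, against -0.03 over all 20017 genes tested, and 43 of 46 were higher (41 on library totals, with a median of 0.32). By edgeR 0 members passed, against 0.165% of all genes, and 1 was higher at an unadjusted p under 0.05, against 4.48% of all genes. DESeq2 called 0, against 1.87% of all genes called higher and 1.11% called lower, or 1 without yHSC 1. Groups did not overlap for 8 members, with Selp_high higher, against 8.52% of all genes. The library yHSC 1 had weight here: without it the median was 0.61 and 24 members were higher at an unadjusted p under 0.05, while without yHSC 2 the median was 0.23 and that count was 0. The shares over all genes in these refits are not given here, so their counts cannot be set against a background. This comparison and that of Selp_low with yHSC share their control libraries and are not independent.

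The smallest p belonged to Ndufa11, with a log2 fold change of 0.82 (0.01 to 1.64) and an edgeR adjusted p of 0.654. Next came Ndufs4, an accessory subunit of the NADH-oxidising module, at 0.57 (-0.01 to 1.15), with 54.1 to 74.4 CPM in yHSC and 87.3 to 107 CPM in Selp_high libraries. Ndufaf2 followed at 0.68 (-0.12 to 1.47), with 10.6 to 16.2 CPM in yHSC and 16.8 to 24.1 CPM in Selp_high libraries, then Ndufv3 at 0.48 (-0.09 to 1.05). Ndufa1 and Ndufa2 gave 0.27 (-0.52 to 1.05) and 0.41 (-0.18 to 0.99). Ndufb2 was the member with the most negative value, at -0.72 (-1.80 to 0.35), from 13.0, 7.14 and 9.82 CPM in yHSC to 3.31, 7.86 and 7.42 CPM in Selp_high libraries, where the groups overlapped.

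Across the 9 libraries most members varied in parallel. As a description over libraries that share depth and cell make-up, Pearson's r of log2 CPM between members had a median of 0.81 over 1035 pairs, and 52 pairs were below 0. The member nearest to the median profile of the set was Ndufa5, a subunit of the peripheral arm (r = 0.99), and the farthest were Ndufs1 (-0.33), Ndufb2 (0.19), Ndufaf7 (0.29) and Ndufv1 (0.59). Over the 9 libraries the coefficient of variation ran from 11.2% for Ndufv1 to 81.2% for Ndufa1.

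The other respiratory complexes had medians near those of complex I. For 39 subunit genes of complexes II to V, the median log2 fold change was 1.21 for Selp_low over yHSC (38 of 39 higher, 0 called by edgeR, 22 called higher by DESeq2), -0.75 for Selp_high over Selp_low (37 lower, 0 and 3 called) and 0.34 for Selp_high over yHSC (37 higher, 0 called by either). Of all genes, DESeq2 called 2.79% higher in the first and 1.81% lower in the second of these comparisons. For complex I, its count in the first ran from 0 to 34 with each library left out. Complex II, which pumps no protons and has 4 subunit genes, had the lowest of the 4 medians for Selp_low over yHSC, 0.57. The 6 tested complex I subunits encoded by mitochondrial DNA had medians of 0.01, -0.13 and 0.01 in the same order, with 3, 3 and 4 of 6 higher and 0 called by either tool. Their summed level varied widely, at 2556 ± 1507 CPM in yHSC, 2480 ± 763 in Selp_low and 2179 ± 1055 in Selp_high libraries (mean ± SD, n = 3).

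Complex I assembly factors with other names had smaller median differences than the Ndufaf genes for Selp_low over yHSC, and the gap was not tested. The 13 tested had a median log2 fold change of 0.20 for Selp_low over yHSC, with 9 higher and 0 called by edgeR. DESeq2 called 1 of them, Dmac1, higher, against 2.79% of all genes. The 2 at an unadjusted p under 0.05, against 7.11% of all genes that were higher, were Dmac1, a factor for the distal membrane arm, at 1.51, and Tmem126a at 1.11. For Selp_high over Selp_low the median of the 13 was 0.18 (9 of 13 higher), and 0 were called by edgeR. Tmem126a, at -1.35, was the only one DESeq2 called lower, against 1.81% of all genes. The 10 regulators of mitochondrial genes, among them Nrf1, Gabpa, Yy1, Ppargc1a and Tfam, had medians of -0.07, 0.09 and -0.26 for the 3 comparisons in the order above. Of them, 0 were called by either tool or passed an unadjusted p of 0.05. Over yHSC, Selp_low values were -0.06 for Nrf1, 0.06 for Gabpa and 0.01 for Yy1.

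In every comparison, the bin of the longest genes had the smallest median difference, both among members and among protein-coding genes. For Selp_low over yHSC, the 14 members of up to 1100 bases had a median log2 fold change of 1.28, against 0.89 for the 449 protein-coding genes of that length. The 15 members of 1100 to 2100 bases had a median of 1.09 against 0.42, and the 17 longer ones 0.71 against -0.03. For Selp_high over Selp_low the values were -0.85 against -0.61, -0.65 against -0.25 and -0.34 against 0.05. Across the 46 members, Spearman's rho of the log2 fold change with gene length was -0.64 for Selp_low over yHSC and 0.51 for Selp_high over Selp_low, as descriptions across genes that are not independent. Over all protein-coding genes tested, rho was weak, at -0.18 and 0.045. For Selp_high over yHSC the medians of the members were 0.40, 0.40 and 0.20 from the shortest to the longest bin, against 0.25, 0.17 and -0.04 for protein-coding genes. There rho was -0.37 over members and -0.18 over protein-coding genes. Ndufa1 is the shortest member at 419 bases and Ndufs1 the longest at 8086 bases. The part of length in the class differences was not tested.

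**Figure D5:**
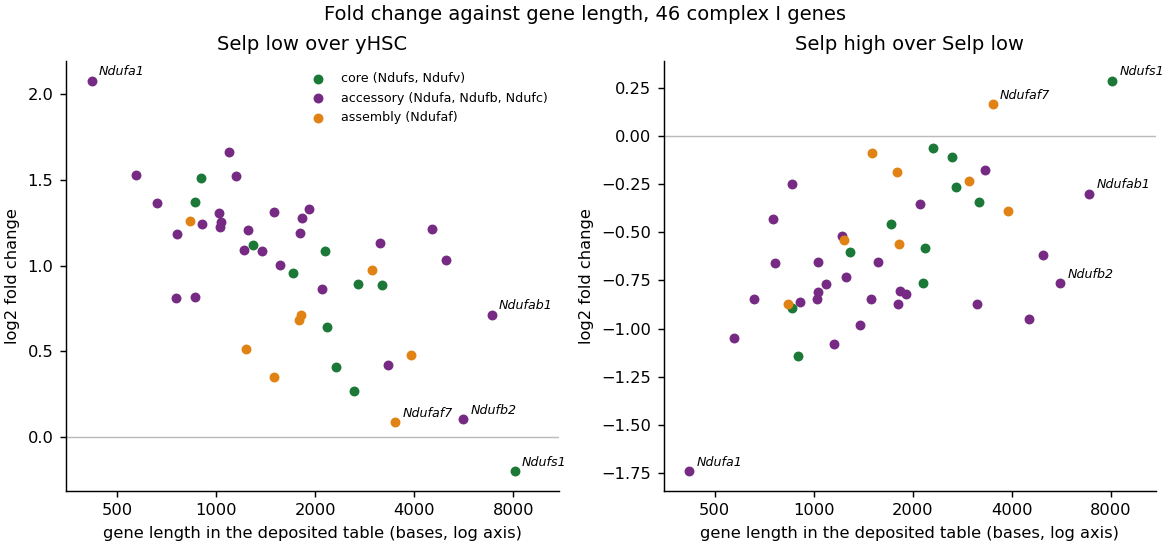
Log2 fold change (edgeR, TMM) of the 46 tested complex I genes against gene length in the deposited table (bases, log axis), for Selp_low over yHSC (left) and Selp_high over Selp_low (right), coloured by class. Ndufa1 (419 bases) and Ndufs1 (8086 bases) lie at opposite ends of both axes in both comparisons.

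Counts of some members are uncertain because other genes share their position. Whether counting used the strand is not given, and reads of overlapping genes on opposite strands may not be separable. The gene spans of Ndufs1 (37056 counts over all libraries) and Eef1b2 (34118), of Ndufs6 (15978) and Mrpl36 (19557), of Ndufb11 (25261) and Rbm10 (27294), of Ndufb1 (12175) and Cpsf2 (23820), and of Ndufaf3 (10723) and Impdh2 (37933) overlap in this way. So do those of Ndufaf2 (5404) and Smim15 (15373), and of Ndufb2 (2492) and Braf (5178). Pairs with fewer counts for the partner include Ndufa2 with Tmco6, Ndufa3 with Tfpt, Ndufa11 with Vmac and Ndufb5 with Mrpl47. Among near copies, the processed pseudogene Ndufa12-ps held 10826 counts beside 25502 of Ndufa12, Ndufs6b held 225 beside 15978 of Ndufs6, and Ndufa11b held 0.

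Since most members varied in parallel, their promoters were searched for the letters of 3 factors known to act on nuclear respiratory genes. RefSeq windows of 250 bases before to 50 after a transcription start (GRCm38.p6, another build than the mm39 of the counts) were found for 41 of the 48 genes, with 43 windows. The NRF1 core GCGCATG was in 7 of the 43 windows (16.3%), the ETS core CCGGAAG bound by GABPA in 6 and the YY1 core ATGGCGG in 11 (25.6%), on either strand. Over all 32851 windows the shares were 3.91%, 8.86% and 4.05%, in the same order. These matches are descriptions and not sites of binding. The 250 bases before the start are shown for 3 genes called higher in Selp_low paHSCs by DESeq2 and for Ndufaf7, whose level did not pass any test, with matches in capitals: in Ndufa1 the YY1 core on the reverse strand, in Ndufa11 a pair of overlapping NRF1 cores on opposite strands, in Ndufa6 the NRF1 core on the reverse strand, and in Ndufaf7 the YY1 core.
Ndufa1, chrX:37191239-37191488 (- strand): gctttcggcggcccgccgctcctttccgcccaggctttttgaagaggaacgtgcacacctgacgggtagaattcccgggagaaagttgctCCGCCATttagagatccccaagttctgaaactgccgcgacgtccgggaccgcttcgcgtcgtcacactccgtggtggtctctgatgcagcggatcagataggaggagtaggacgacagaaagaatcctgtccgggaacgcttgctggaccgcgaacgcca
Ndufa11, chr17:56717512-56717761 (+ strand): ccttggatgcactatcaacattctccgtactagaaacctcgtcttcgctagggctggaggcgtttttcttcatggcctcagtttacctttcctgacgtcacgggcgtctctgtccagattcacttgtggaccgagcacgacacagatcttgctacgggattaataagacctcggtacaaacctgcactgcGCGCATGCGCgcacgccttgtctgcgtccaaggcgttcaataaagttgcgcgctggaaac
Ndufa6, chr15:82354292-82354541 (- strand): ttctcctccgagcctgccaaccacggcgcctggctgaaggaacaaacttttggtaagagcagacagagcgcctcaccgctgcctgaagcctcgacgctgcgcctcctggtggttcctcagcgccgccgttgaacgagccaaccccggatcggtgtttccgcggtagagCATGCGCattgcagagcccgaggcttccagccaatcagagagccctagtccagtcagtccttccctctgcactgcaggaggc
Ndufaf7, chr17:78936885-78937134 (+ strand): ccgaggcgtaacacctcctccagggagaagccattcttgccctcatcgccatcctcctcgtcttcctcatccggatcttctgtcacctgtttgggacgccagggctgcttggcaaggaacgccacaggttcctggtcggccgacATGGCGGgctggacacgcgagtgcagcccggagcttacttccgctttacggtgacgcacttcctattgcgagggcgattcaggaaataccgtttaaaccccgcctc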

How the data were processed

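RNA-seq covered sorted HSCs of 3 groups in 9 libraries, described by the authors as biological replicates. RNA was amplified with a SMARTer Ultra Low kit and made into libraries with Tn5. Per the study's methods and the submitters' processing notes, reads were trimmed with fastp, aligned to mm39 with HISAT2 2.2.1 and counted per gene with featureCounts 2.0.6. The deposited counts are whole reads per gene, not normalized. For strand, multimapping reads and the release of the gene annotation, the settings are not given. Gene lengths are those of the deposited table. The study's other assays were not analysed here.

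From these counts, edgeR 4.0.16 (R 4.3.3) fitted each pair of groups alone with TMM factors, filterByExpr and the quasi-likelihood test, with Benjamini-Hochberg adjustment over all genes tested. A gene was called at an adjusted p of 0.05 and an absolute log2 fold change of 1. The intervals are 95% intervals from the fitted standard error. DESeq2 1.42.0, the study's tool, and limma 3.58.1 were alternatives, beside other scalings, filters and dispersion settings and leaving out each library. DESeq2 with single libraries left out, with the block or with no filter, and totals without the most abundant genes were chosen after seeing the data. CPM used TMM-scaled totals, and the sum of a library was taken over all members. Floors of 3 counts cover counting error only. An exact permutation test of 3 against 3 libraries cannot go below p = 0.1, so none is given. The scripts were tested on simulated data. Libraries of the Selp_low and Selp_high fractions with the same replicate number in their titles deviated together (correlations of 0.350, 0.381 and 0.405, all above 0.1), so the number was taken to pair them. The sources used here do not say whether such libraries shared animals or a batch. The main fits used no block, and the replicate block was an alternative. With yHSC the correlations were -0.197 to 0.103, and the number was not taken to pair libraries.

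All Nduf genes entered the counts and medians, and the values of a single member are not reported here. Values were given for members called by edgeR or DESeq2, the 4 with the smallest p per comparison, the 3 highest and 3 lowest FPKM, members whose groups did not overlap in several comparisons, near copies, and Ndufa1, Ndufa2, Ndufa3, Ndufaf7 and Ndufs1. The members and lists were chosen with earlier results of these data known. Promoter sequences are from RefSeq (GRCm38.p6).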

Additional observations from a re-analysis of the deposited data

How the results depend on the processing

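The median log2 fold change of the complex I genes kept its direction in 60 of 60 alternatives. It was -0.16 for Selp_high over Selp_low and 0.49 for Selp_low over yHSC on library totals, and -0.52 and 0.80 on totals without the most abundant genes. With each library left out it was -0.77 to -0.57 for Selp_high over Selp_low, 0.23 to 0.61 for Selp_high over yHSC and 0.92 to 1.25 for Selp_low over yHSC. The number of members called, 0 by edgeR in each comparison, was 1 with no filter and 3 by DESeq2 for Selp_high over Selp_low, and 1, 19 and, by voom, 28 for Selp_low over yHSC. It was 0 to 0 with each library left out. DESeq2 without a filter called 1 and 3 members. With each library left out DESeq2 called 1 to 7, 0 to 1 and 0 to 34 members, in the order of the medians above, and 4, 0 and 14 with the replicate block. Over all genes, edgeR called 0, 33 and 0. With no filter these counts were 193, 472 and 365, and by DESeq2 807, 597 and 896. Voom gave 275 for Selp_high over yHSC and 431 for Selp_low over yHSC. For Selp_high over yHSC the edgeR 4 setting gave 90, 1 fit of all 9 libraries 19 and protein-coding genes alone 61. The replicate block gave 9 for Selp_high over Selp_low and 0 for Selp_high over yHSC, and by edgeR it changed no call of a member. With each library left out the counts were 0 to 50, 0 to 36 and 0 to 118. The cause of these differences was not tested.

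Of 798 alternative values of the named genes, 747 kept their direction and side of the thresholds, 42 newly passed them and 9 turned. For Selp_low over yHSC, Ndufaf7 was -0.45 on library totals, -0.17 without the most abundant genes and -0.05 without yHSC 2, Ndufb2 was -0.50, -0.17 and -0.10 in the same order and -0.04 without Selp_low 2, and Ndufv1 was -0.31 on library totals. For Selp_high over Selp_low, Ndufaf7 was -0.06 without Selp_high 1. With each library left out, Ndufaf7 ranged from -0.058 to 0.343 for Selp_high over Selp_low and from -0.051 to 0.133 for Selp_low over yHSC, and Ndufb2 from -0.10 to 0.314 for the latter. The precision of single genes was limited by having 3 libraries a group, 1 of which in the Selp_low group was rich in plasma cell and 1 in neutrophil transcripts.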
